A study of Mus musculus with 12 samples.

Results

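Inhibitory receptors of T cells outside the SLAM family were taken as 7 genes, Ctla4, Lag3, Pdcd1, Havcr2, Tigit, Cd160 and Btla. The members were chosen by symbol from 13283 genes in the expression table, and all 7 were found. The rule itself uses the symbols only, but the members were chosen with earlier results of these data known. Counts of members beside all genes describe a set chosen with that knowledge.

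The libraries were from mouse cytotoxic T lymphocytes (CTL), in 4 groups of 3 biological replicates. WT CTL came from GzmB cre+ mice, so the controls carry the Cre recombinase too. For FOXO1-GFP KO CTL the mice were FOXO1-GFP fl/fl and also GzmB cre+: Cre driven by the granzyme B promoter removes exon 2 of the tagged Foxo1 gene once T cells are activated. The mice were females of 11 to 27 weeks. Cells from lymph nodes or spleens were activated for 48 h with anti-CD3 and anti-CD28, each at 0.5 µg/ml, with IL-2 at 20 ng/mL and IL-12 at 2 ng/mL, and were then grown in both cytokines. On day 6 cells were plated for 24 h with vehicle (DMSO) or with IC87114 (PI3Kdi) at 10 µM, a compound that blocks p110δ, the catalytic subunit of PI3K most used by lymphocytes. KO CTL were sorted as DAPI-CD8+GFP- and WT CTL as DAPI-CD8+, so the sort gate and the genotype cannot be told apart.

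Inhibitory receptors are surface proteins that restrain T cells when they meet their ligands, and most appear after activation. CTLA4 competes with CD28 for CD80 and CD86. PD-1 (Pdcd1) recruits the phosphatase SHP-2, LAG3 binds MHC class II, TIM-3 (Havcr2) binds galectin-9 among other ligands, and TIGIT competes with CD226 for the poliovirus receptor. BTLA and CD160 share the ligand HVEM (Tnfrsf14). FOXO1 is a forkhead transcription factor that PI3K signalling, through AKT, keeps out of the nucleus.

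Estimated depth ran from 12860000 to 48010000 reads per library, with a mean of 33670000 reads in WT and 16560000 reads in WT+PI3Kdi. Foxo1 was between 5.77 and 10.46 FPKM (fragments scaled to exon length and to library depth) in the 6 WT libraries. In the 6 KO libraries it was between 0.58 and 1.75 FPKM, so its signal was low but not absent. These values cover all exons of the gene while Cre removes exon 2, so they do not show how much intact Foxo1 remained. The 8 CD8 T cell markers summed to between 8687 and 12638 FPKM in every library. Most of that sum was the effector gene Gzmb, at 7317.02 to 10955.02 FPKM, while Cd8a was 139.05 to 253.21 FPKM. Of 10 B cell markers, 4 had a row, and their sum was 13.7 to 16.9 FPKM in WT, 16.8 to 20.7 in WT+PI3Kdi, 6.49 to 8.13 in KO and 5.75 to 8.49 in KO+PI3Kdi. In bulk RNA, fewer cells of a type and less RNA per cell cannot be told apart.

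The receptors covered a wide range of mRNA levels. Havcr2 was the most abundant in every group, with a mean of 57.2 ± 7.6 FPKM (SD, n = 3) in WT, and Btla the least, at 0.357 ± 0.0351 FPKM. Between them in WT lay Tigit (28.3 ± 2.68 FPKM), Lag3 (26.7 ± 3.5), Cd160 (19.5 ± 4.62), Ctla4 (13.4 ± 3.74) and Pdcd1 (8.42 ± 1.12). The summed level of the 7 genes was 154 ± 12.3 FPKM in WT, 188 ± 19.1 in WT+PI3Kdi, 140 ± 10.6 in KO and 164 ± 15.9 in KO+PI3Kdi. The make-up of that sum differed between groups. Ctla4 held 14 ± 2.52% of it in WT+PI3Kdi and 4.74 ± 0.638% in KO+PI3Kdi, whereas Cd160 held 14.1 ± 2.18% and 25.4 ± 6.2% in the same groups.

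**Figure D1:**
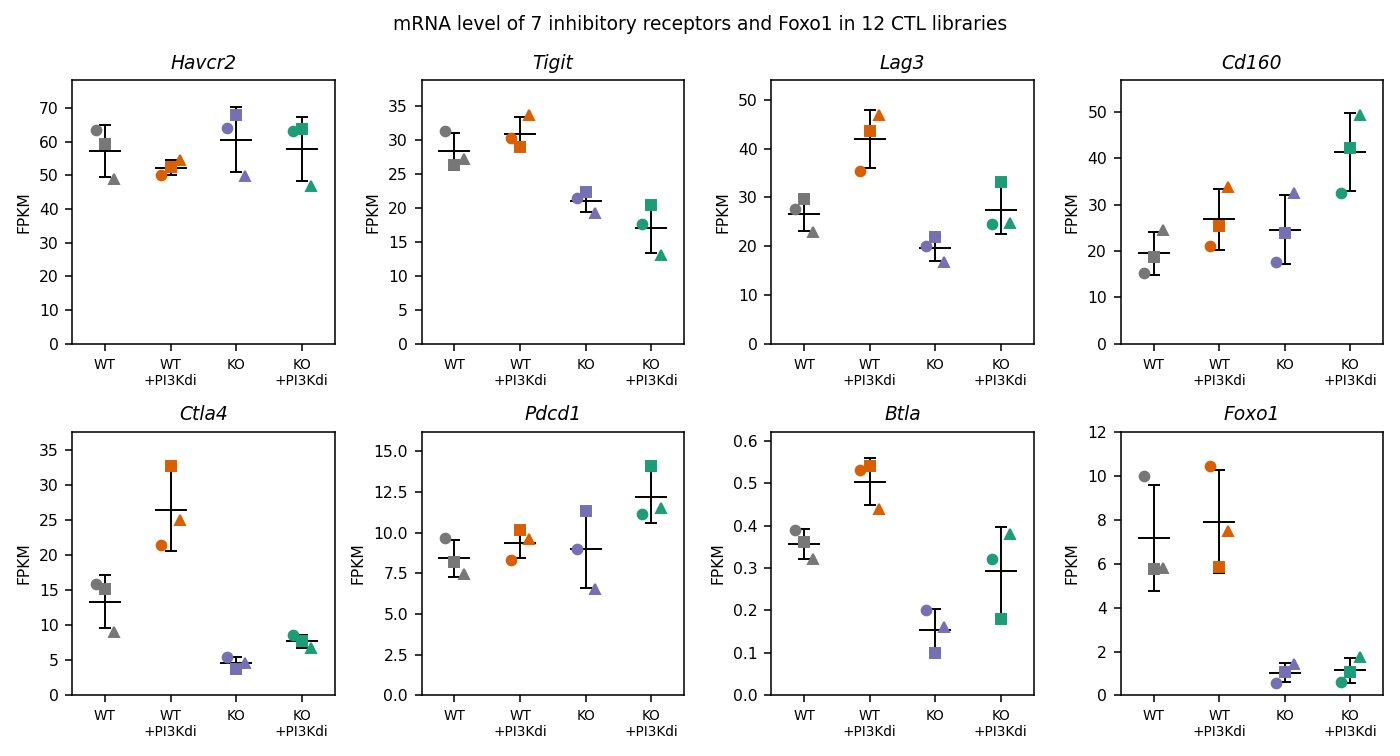
FPKM (linear axes from 0) of the 7 receptors and Foxo1 in each library by group, with circles, squares and triangles for replicates 1, 2 and 3 and black bars for the mean ± SD of 3 libraries; KO stands for FOXO1-GFP KO. Ctla4 ran from 3.76 to 32.74 FPKM with no overlap between neighbouring groups, and Havcr2 overlapped between all groups.

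**Figure D2:**
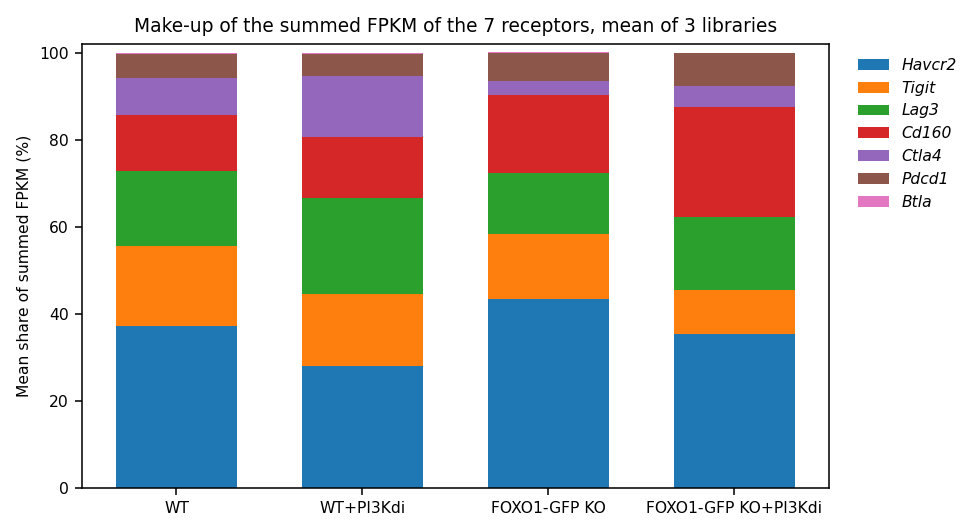
Mean share (%) of each receptor in the summed FPKM of the 7 genes, as stacked bars from 0 for the 4 groups, means of 3 libraries. The Ctla4 segment is 14% in WT+PI3Kdi and 4.74% in KO+PI3Kdi, and the Cd160 segment 14.1% and 25.4%.

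Because the groups differ in a forkhead factor, the RefSeq promoter windows (GRCm38.p6, 250 bases before to 50 after the annotated start) were searched on both strands. Windows were matched for 6 of the 7 members, with 2 for Cd160; Lag3 had no entry. The letters were GTAAACA, the forkhead consensus (in 3.65% of 32851 promoters), CAAAACAA, the insulin response motif (2.51%), and AAACA, the core (50.5%); the last lies within both of the others. GTAAACA was in none of the 7 windows. CAAAACAA was in the Ctla4 window alone, at 2 places, and AAACA was in the windows of Ctla4, Tigit (6 places) and Btla (1 place). A set of 3 windows is printed 5′ to 3′ on the gene's strand, with AAACA or its reverse complement TGTTT in capitals: Ctla4 (chr1:60908775-60909074, + strand) and Tigit (chr16:43664135-43664434, - strand), the members called between genotypes, and Havcr2 (chr11:46454681-46454980, + strand), a member not called in any comparison. A match is a string of letters, not a measured binding site. Btla also holds AAACA and was not called between genotypes. Whether the letters go with a call was not tested.
Ctla4: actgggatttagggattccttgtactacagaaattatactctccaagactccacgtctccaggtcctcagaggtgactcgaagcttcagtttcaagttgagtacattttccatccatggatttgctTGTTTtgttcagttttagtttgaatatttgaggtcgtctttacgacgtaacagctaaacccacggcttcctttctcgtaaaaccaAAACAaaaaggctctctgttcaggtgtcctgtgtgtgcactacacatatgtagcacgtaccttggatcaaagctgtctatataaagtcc
Tigit: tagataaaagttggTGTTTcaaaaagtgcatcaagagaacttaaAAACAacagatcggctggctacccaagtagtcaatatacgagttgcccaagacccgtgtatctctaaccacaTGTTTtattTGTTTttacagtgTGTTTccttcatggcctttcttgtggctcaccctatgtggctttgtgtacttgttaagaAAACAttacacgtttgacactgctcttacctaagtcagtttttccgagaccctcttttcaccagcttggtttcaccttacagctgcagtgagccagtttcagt
Havcr2: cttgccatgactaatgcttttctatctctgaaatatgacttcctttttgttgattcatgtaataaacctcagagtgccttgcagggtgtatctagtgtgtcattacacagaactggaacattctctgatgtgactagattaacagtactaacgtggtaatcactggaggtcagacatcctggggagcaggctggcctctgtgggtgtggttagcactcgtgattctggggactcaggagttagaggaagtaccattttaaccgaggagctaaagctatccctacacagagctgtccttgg

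In the comparisons below, a gene was called when its adjusted p (limma on log2(FPKM + 0.1), Benjamini-Hochberg over all 13283 genes) was under 0.05 and its change over 1.5-fold. Libraries with the same replicate number deviated together within a genotype, so each comparison was also fitted with that number as a block within genotype, and the blocked value is given wherever it changes a call. All changes below are log2 values that include the added 0.1, so the change of a low gene is understated. The comparisons share libraries: each group, with vehicle or with PI3Kdi, enters both a drug and a genotype comparison, so their calls are not independent.

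The first question was what 24 h of PI3Kdi did in WT CTL. Ctla4 was 15.86, 15.15 and 9.05 FPKM with vehicle and 21.41, 32.74 and 25.01 FPKM with PI3Kdi, in the order of the replicates. The groups did not overlap, and the rise within the numbered pairs was 0.43, 1.11 and 1.46 on the log2 scale. Lag3 was 27.70, 29.63 and 22.83 FPKM with vehicle and 35.48, 43.70 and 46.96 FPKM with PI3Kdi, again without overlap. Without the block none of the 7 receptors was called, against 0.0979% of all genes, although 2 of the 7 and 683 of 13283 genes had an unadjusted limma p under 0.05, and voom on estimated reads without the block also called 0. With the replicate block 2 of 7 were called, against 2.57% of all genes: Ctla4 (log2 fold change 1.0, SE 0.155, adjusted p = 0.00254) and Lag3 (0.65, SE 0.106, adjusted p = 0.00352). Without the block their adjusted p were 0.197 and 0.249.

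Cd160, a GPI-anchored receptor also found on NK cells, was higher with PI3Kdi by 0.45, 0.45 and 0.47 in the 3 WT pairs, the narrowest spread of the set. Its level was 15.30, 18.63 and 24.43 FPKM with vehicle and 21.01, 25.47 and 33.87 FPKM with PI3Kdi, so the groups overlapped while every pair moved alike. The fitted change of 0.46 had an adjusted p of 0.0185 with the block and stayed under 1.5-fold. Btla, at 0.32 to 0.39 FPKM with vehicle and 0.44 to 0.54 FPKM with PI3Kdi, did not overlap but rested on an estimated 23 to 59 reads per library (blocked adjusted p = 0.0665). Havcr2, Pdcd1 and Tigit had fitted changes of -0.12, 0.16 and 0.13, none called. The median over the 7 genes was 0.40, beside -0.04 over all genes. Ctla4, Lag3 and Btla, 3 of 7 members, did not overlap between these groups, beside 10.2% of all genes.

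The same drug comparison was then made in FOXO1-GFP KO CTL. Ctla4 was 5.53, 3.76 and 4.60 FPKM with vehicle and 8.63, 7.83 and 6.76 FPKM with PI3Kdi. The groups did not overlap, and all 3 pairs were higher with the inhibitor. Cd160 was 17.65, 23.84 and 32.43 FPKM with vehicle and 32.48, 42.13 and 49.34 FPKM with PI3Kdi, with the lowest treated library just above the highest vehicle library. Without the block 0 of 7 were called by limma, against 0.0452% of all genes, with 5 of the 7 and 687 of all genes at an unadjusted p under 0.05, and voom without the block called 0. With the replicate block 3 of 7 were called, against 2.79% of all genes: Cd160 (0.77, SE 0.101, adjusted p = 0.00137), Btla (0.62, SE 0.121, adjusted p = 0.0101) and Ctla4 (0.74, SE 0.155, adjusted p = 0.0143). Their adjusted p without the block were 0.707, 0.786 and 0.653.

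Btla in KO CTL was 0.20, 0.10 and 0.16 FPKM with vehicle and 0.32, 0.18 and 0.38 FPKM with PI3Kdi, an estimated 7 to 33 reads. Lag3 was 20.11, 21.88 and 16.81 FPKM with vehicle and 24.48, 33.16 and 24.77 FPKM with PI3Kdi, a change of 0.48 (blocked adjusted p = 0.0181) that was under 1.5-fold. Pdcd1 was 9.02, 11.36 and 6.57 FPKM with vehicle and 11.13, 14.10 and 11.51 FPKM with PI3Kdi, higher in each pair by 0.30 to 0.80 (fitted 0.47, blocked adjusted p = 0.0308), also under 1.5-fold.

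Tigit went the other way in KO CTL. It was 21.50, 22.25 and 19.20 FPKM with vehicle and 17.69, 20.48 and 13.01 FPKM with PI3Kdi, lower in all 3 pairs by 0.12 to 0.56, with a fitted change of -0.32 (blocked adjusted p = 0.0398) that was under 1.5-fold. Havcr2 changed by -0.07, with pair values from -0.09 to -0.02. The median over the 7 genes was 0.48, beside -0.02 over all genes. Ctla4, Lag3 and Cd160, 3 of 7 members, did not overlap between these groups, beside 10.1% of all genes.

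**Figure D3:**
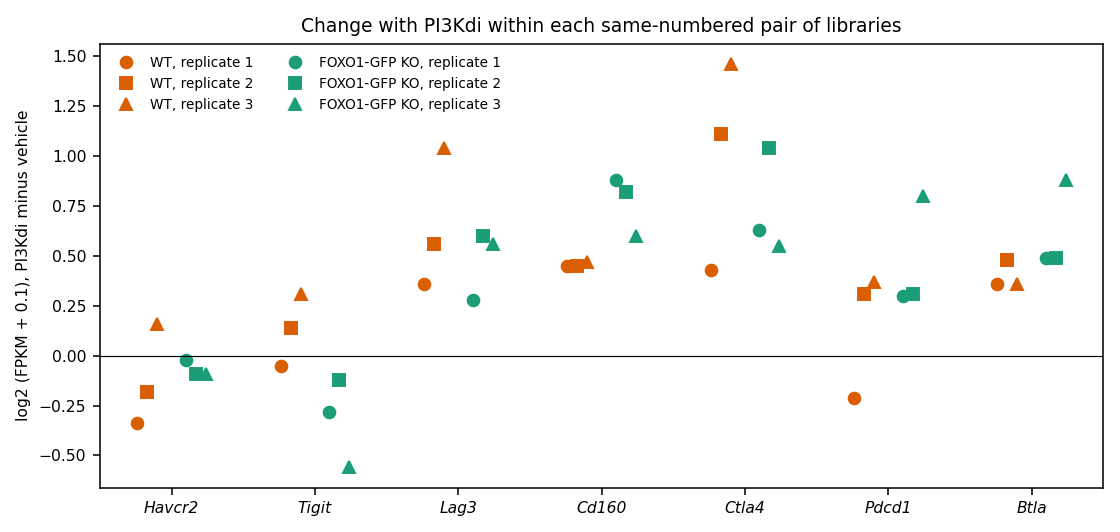
Change with PI3Kdi on the log2(FPKM + 0.1) scale (y axis, treated minus vehicle of the same replicate number) for each receptor, with WT pairs in orange and FOXO1-GFP KO pairs in green. Ctla4, Lag3, Cd160 and Btla were above 0 in all 6 pairs, and Tigit was below 0 in all 3 KO pairs.

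The response to PI3Kdi was compared between genotypes by the difference of the fitted drug changes (KO minus WT). Of the 7 receptors 0 were called by limma, without the block (0% of all genes called, 200 genes and 0 members at an unadjusted p under 0.05) and with it (0.0226% of all genes called, 1435 genes and 1 member at an unadjusted p under 0.05); voom with or without the block also called 0. That member was Tigit, with a difference of -0.45 (95% interval -0.72 to -0.18, blocked adjusted p = 0.181). For Ctla4 the difference was -0.26 (blocked interval -0.74 to 0.22) and for Cd160 0.31 (blocked interval -0.00 to 0.62). These intervals do not show that the drug acted alike in both genotypes.

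Between genotypes with PI3Kdi, 2 of 7 receptors were called, both lower in KO, against 1.45% of all genes called without the block and 1.18% with it. Ctla4 was 21.41 to 32.74 FPKM in WT+PI3Kdi and 6.76 to 8.63 FPKM in KO+PI3Kdi, a change of -1.74 (SE 0.23, adjusted p = 0.00295). Tigit was 30.28, 28.86 and 33.68 FPKM in WT+PI3Kdi and 17.69, 20.48 and 13.01 FPKM in KO+PI3Kdi, a change of -0.88 (SE 0.151, adjusted p = 0.0131). Neither gene overlapped between the groups, and both calls held with the block (adjusted p = 0.02 and 0.0344). The Tigit call was lost without WT+PI3Kdi replicate 3 (-0.81, adjusted p = 0.0682) and in a fit of only the 6 libraries compared (adjusted p = 0.0862).

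The other members with PI3Kdi were not called. Lag3 had a fitted change of -0.62 and Btla one of -0.65, both without overlap between the groups. Pdcd1 was 8.32 to 10.17 FPKM in WT+PI3Kdi and 11.13 to 14.10 FPKM in KO+PI3Kdi, also without overlap, with a change of 0.38 and an adjusted p of 0.543. Cd160 had a change of 0.63 with overlapping groups, and Havcr2 one of 0.13. In all, 5 of 7 members did not overlap between these groups, beside 14.8% of all genes.

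Without PI3Kdi, Ctla4 was the receptor called between genotypes, 1 of 7 against 0.331% of all genes. It was 15.86, 15.15 and 9.05 FPKM in WT and 5.53, 3.76 and 4.60 FPKM in KO, without overlap (-1.48, SE 0.23, adjusted p = 0.0193). With the block none of the 7 was called, against 0.233% of all genes, and Ctla4 had an adjusted p of 0.116; 3 of the 7 and 676 genes had an unadjusted limma p under 0.05. The call was also lost without WT replicate 1 (adjusted p = 0.0927), WT replicate 2 (0.104), KO replicate 1 (0.0538), KO replicate 2 (0.105) or KO replicate 3 (0.0788). Tigit was 31.30, 26.27 and 27.19 FPKM in WT and 21.50, 22.25 and 19.20 FPKM in KO, without overlap, with a change of -0.43 and an adjusted p of 0.49. Lag3 was 27.70, 29.63 and 22.83 FPKM in WT and 20.11, 21.88 and 16.81 FPKM in KO, also without overlap, with a change of -0.45 and an adjusted p of 0.509. Cd160, Havcr2 and Pdcd1 had changes of 0.32, 0.08 and 0.07 with overlapping groups. In all, 4 of 7 members did not overlap between these groups, beside 10.3% of all genes.

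Btla had a genotype difference without PI3Kdi of -0.87 (adjusted p = 0.178), from 0.39, 0.36 and 0.32 FPKM in WT to 0.20, 0.10 and 0.16 FPKM in KO. BTLA is also made by B cells, and the summed level of the 4 B cell markers was lower in KO too (given above). Ighm, the IgM heavy chain, was 7.61 to 10.33 FPKM in WT and 2.35 to 3.71 FPKM in KO, and Igkc, the kappa light chain, was 0.30 to 1.68 FPKM in WT, 0.00 to 0.29 in KO and listed at 0 in all 3 KO+PI3Kdi libraries. The part of B cell RNA in the Btla values was not tested.

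**Figure D4:**
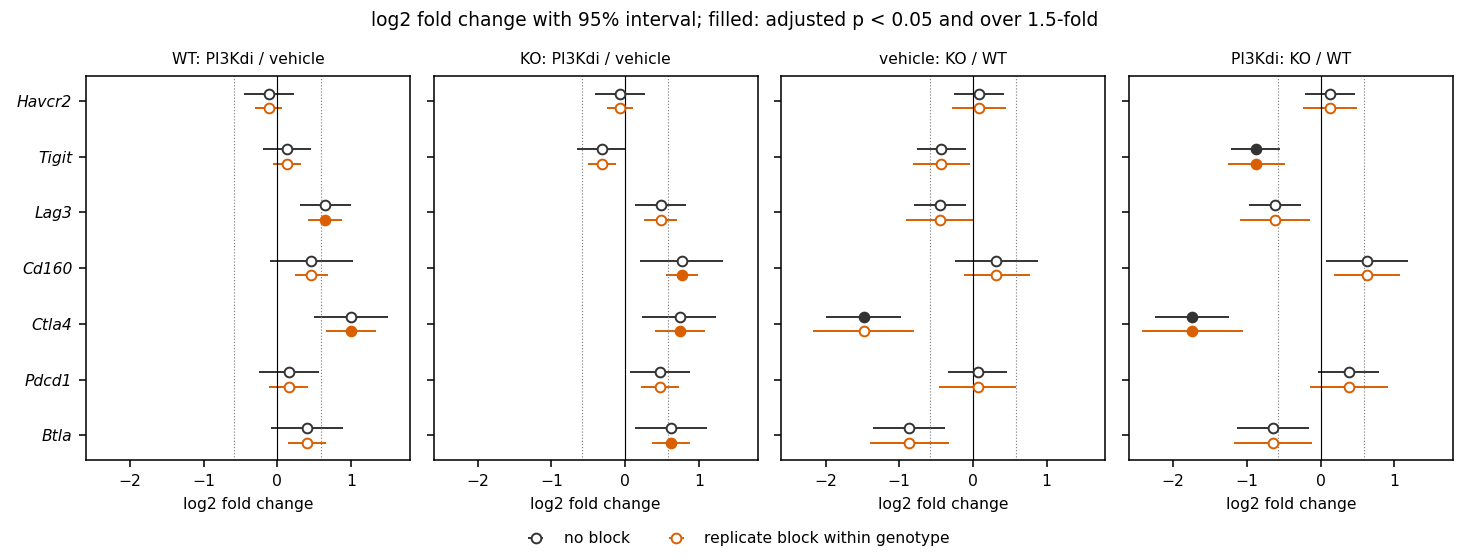
log2 fold change (x axis) with its 95% interval for each receptor in the 4 comparisons, without the replicate block in black and with it in orange; filled points were called, and dotted lines mark 1.5-fold. Ctla4 lay at -1.48 and -1.74 between genotypes, while Havcr2 stayed between -0.12 and 0.13.

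The order of the group means differed from gene to gene. Ctla4 ran from KO (4.63 FPKM) through KO+PI3Kdi (7.74) and WT (13.4) to WT+PI3Kdi (26.4), with no overlap between neighbours. Lag3 had the same lowest and highest groups, but WT (26.7 FPKM) and KO+PI3Kdi (27.5) overlapped. Tigit was lowest in KO+PI3Kdi (17.1 FPKM), which overlapped KO (21), and WT (28.3) overlapped WT+PI3Kdi (30.9). Cd160 and Pdcd1 were highest in KO+PI3Kdi (41.3 and 12.2 FPKM). Neighbouring groups of Cd160 all overlapped, as did all those of Havcr2, and for Pdcd1 only KO+PI3Kdi stood clear of its neighbour.

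Genes around the receptors were looked at next (GRCm38). Ctla4 (chromosome 1, 60887000 to 60915832) has Icos, a CD28 family costimulator, 62094 bp away on the same strand. Icos was 38.6 ± 14.3 FPKM in WT, 51.4 ± 8.27 in WT+PI3Kdi, 22.5 ± 3.5 in KO and 25.1 ± 5.06 in KO+PI3Kdi, and was not called in any comparison. The pseudogene Rpl18-ps1 overlaps Ctla4 on the same strand (1.95 to 3.13 FPKM as group means), and how reads there were counted was not tested. Lag3 (chromosome 6, 124904361 to 124911705) lies 1975 bp from Ptms and, on its other side, 16139 bp from Cd4, all on the same strand. Mean Ptms was 59.8 FPKM in WT, 75.5 in WT+PI3Kdi, 55.7 in KO and 82.3 in KO+PI3Kdi. Cd4 was 0.44 to 0.57 FPKM in WT and 0.83 to 0.95 FPKM in WT+PI3Kdi (0.68, blocked adjusted p = 0.0413, and 1 without the block). Cd160 (chromosome 3, 96798763 to 96829351) overlaps Pdzk1 on the opposite strand, at 0.16 to 0.307 FPKM as group means. Which strand was counted is not given in the sources used here. As group means, the genes flanking Cd160 were 30 to 31.8 FPKM (Rnf115) and 7.58 to 7.99 (Gpr89). Those flanking Pdcd1 were 2.05 to 2.43 (D2hgdh) and 1.91 to 2.49 (Fam174a). Havcr2 had Med7 (9.64 to 11.7) and Gm12174 (6.97 to 8.4). Tigit had Zbtb20 (0.0967 to 0.137) and Qtrt2 (2.83 to 3.31). Btla had Gm6030 (1.27 to 1.57) and Abhd10 (3.82 to 4.15). On the other side of Ctla4, Gm37198 was 0.16 to 0.273.

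By Pearson r of log2(FPKM + 0.1) over the 12 libraries, among 9508 other genes averaging 1 FPKM or more, the genes most like Ctla4 were Gimap6 (r = 0.970), Cd53 (0.960) and Gimap7 (0.957). For Lag3 they were Gna15 (0.950), H2-Oa (0.932) and Gpld1 (0.927), and for Tigit Cd55 (0.964), Fcgr3 (0.962) and Tpm4 (0.951). For Cd160 they were Pltp (0.965), Rxrb (0.963) and Srgn (0.960). Havcr2 was most like Hsp90ab1 (0.920), Surf4 (0.918) and Tnfrsf8 (0.917), and Pdcd1 like Snx17 (0.889), Bst1 (0.877) and Prcp (0.866). The 12 points share 4 groups, and the values are the highest of many.

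Genes that work with the receptors were counted from lists. In the drug comparisons no list gene was called without the block (0.0979% of all genes in WT and 0.0452% in KO), so each drug call below rests on the block, with which 2.57% of all genes were called in WT and 2.79% in KO. Of 17 ligand genes, 14 had a row and 0 were called without the block. With it 1 was higher in KO CTL with PI3Kdi, Lgals3, which encodes galectin-3, a LAG3 ligand (0.66, adjusted p = 0.0131; 0.893 without the block). Of 18 signalling and trafficking partners all had a row and 0 were called without the block; with it Trat1, the adaptor TRIM, which associates with CTLA4, was higher with PI3Kdi in WT (2.01-fold, adjusted p = 0.00959) and in KO (1.64-fold, adjusted p = 0.0407), with adjusted p of 0.899 and 0.933 without it. Its level was low, at 0.28 to 0.71 FPKM in WT and 0.56 to 1.46 FPKM in WT+PI3Kdi.

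Of 23 transcription factors tied to these receptors, 21 had a row. Between genotypes with PI3Kdi 2 of the 21 were lower in KO with or without the block. All genes were called at 1.45% without it and 1.18% with it. The 2 were Foxo1, the gene deleted in KO, whose call follows from the design, and Tcf7. Tcf7, the gene for the memory-associated factor TCF-1, had a change of -1.99 (SE 0.315, adjusted p = 0.00905). Tcf7 was 6.74 to 14.94 FPKM in WT+PI3Kdi and 2.04 to 2.87 FPKM in KO+PI3Kdi. With the block, 5 of the 21 were called with PI3Kdi in WT, against 2.57% of all genes. These were 3 that rose, Tcf7 (1.56, adjusted p = 1.75e-04), Bach2 (0.71, adjusted p = 0.00553) and Irf4 (0.60, adjusted p = 0.0078), and 2 that fell, Prdm1 (-0.61, adjusted p = 0.0227) and Tox (-0.78, adjusted p = 0.00812), the latter at 0.17 FPKM or less in every library of these groups. In KO, against 2.79% of all genes, 2 of the 21 rose with the block, Tcf7 (1.23, adjusted p = 0.00108) and Id3 (0.77, adjusted p = 7.04e-04). Without the block 0 of the 21 were called in either drug comparison, with adjusted p for Tcf7 of 0.129 in WT and 0.471 in KO, for Bach2, Irf4 and Tox in WT of 0.709, 0.96 and 0.258, for Prdm1 in WT of 1, and for Id3 in KO of 0.32.

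Of 16 listed genes for other inhibitory receptors or related surface molecules, 14 had a row. Cd6 was higher in KO with PI3Kdi, at 4.80 to 5.13 FPKM beside 3.02 ± 0.347 FPKM (SD, n = 3) in WT+PI3Kdi (0.70, SE 0.122, adjusted p = 0.0137). It was the 1 of 14 called between genotypes with PI3Kdi, against 1.45% of all genes. With the block Nt5e, the ectonucleotidase CD73, and Cd101 were higher with PI3Kdi in WT (1.19, adjusted p = 0.00947, and 0.74, adjusted p = 0.0326), 2 of 14 against 2.57% of all genes. Without the block 0 of the 14 were called in that comparison, and both genes had an adjusted p of 1. Median changes over these 14 genes were -0.13 in WT and 0.07 in KO with PI3Kdi, beside 0.40 and 0.48 for the 7 receptors. Of 7 activating counterparts, which share a ligand or locus with a member, Cd4 alone was called, in WT with the block (adjusted p = 1 without it).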

How the data were processed

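Gene expression was measured by RNA sequencing of 12 CTL libraries (TruSeq stranded mRNA from 300 ng of RNA, paired-end 75 bp reads). The authors aligned reads with STAR 2.7.1a to GRCm38.p6, filtered low genes, applied TMM and deposited FPKM values, computed with edgeR, to 2 decimals. Counts were not used as such, so the test was limma 3.58.1 (R 4.3.3) on log2(FPKM + 0.1) with 4 group means and a mean-variance trend, and not the voom model of the study's methods. Depth was estimated from the steps in short genes' FPKM and used for read estimates and voom. The scripts were tested on simulated data.

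Same-numbered libraries within a genotype had correlated deviations from their group means (r 0.464 to 0.75 over 6 pairs). Between genotypes under the same treatment r was -0.316 to 0.624, so numbers were taken to pair libraries within genotype; the labels do not say that a number marks 1 mouse. If replicates share a source, p-values measure technical spread only.

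The members and lists were chosen with earlier results of these data known, as were the motifs. All 7 members were described, as was Foxo1; list genes were named if called in at least 1 comparison, with or without the block; likeness took the 3 highest r, leaving out predicted gene models. Cell type markers covered CD8 T, CD4 and regulatory T, B, NK and myeloid cells. The sums for myeloid and NK cells were 17 to 29.1 and 103 to 150 FPKM, and for CD4 and regulatory T cells 5.19 to 8.49 FPKM. Most of the NK sum was Eomes, at 81.82 to 111.53 FPKM, and the NK markers Ncr1 and Klra8 had no row. Most of the myeloid sum was Cd68, at 14.54 to 26.95 FPKM, and Lyz2, Csf1r and Adgre1 had no row. Zbtb7b, at 4.32 to 6.90 FPKM, made up most of the CD4 and regulatory T cell sum, and Foxp3 had no row. Alternatives were other pseudocounts, a filter, other scalings, blocks, voom and leaving out each library.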

Additional observations from a re-analysis of the deposited data

How the results depend on the processing

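Of the 7 receptors' fold changes under all alternatives, 725 kept direction and side of the threshold, 13 passed it newly, 10 no longer passed and 10 reversed. The replicate block within genotype called 2 receptors with PI3Kdi in WT, 3 in KO and 0 between genotypes without PI3Kdi, with or without voom, and changed no other count of called receptors. A block by number over all groups called 0 with PI3Kdi in WT (Ctla4 adjusted p = 0.0768, Lag3 0.0576, so both calls of the within-genotype replicate block were lost), 1 with PI3Kdi in KO (Cd160; Btla and Ctla4 were not called) and 4 between genotypes with PI3Kdi (Cd160 and Lag3 added). Fits of only the 6 libraries compared called 1 between genotypes with PI3Kdi and 0 without. Leaving out each library in turn gave 1 to 2 and 0 to 1 for these genotype comparisons. The reversed values were of uncalled genes, and over the left-out libraries they ran, for Havcr2, from -0.20 to 0.08 with PI3Kdi in KO, from -0.03 to 0.22 between genotypes without PI3Kdi and from -0.08 to 0.20 for the difference of responses, and for Pdcd1 from -0.12 to 0.27 between genotypes without PI3Kdi. Btla, at an estimated 7 to 59 reads, had a KO drug change of 0.62, which was 0.88 with a pseudocount of 0.01 FPKM, 0.16 with 1 FPKM and 0.93 by voom with the block. The block moved the calls over all genes from 13 to 342 (WT drug) and from 6 to 370 (KO drug). The cause of these changes was not tested.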
